A study of Sus scrofa with 7 samples.

Results

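Pig cell lines of 3 kinds were sequenced, with 1 library per line. Of the 7 libraries, 5 are compared here: those of 3 pXEN lines, the porcine extraembryonic endoderm cells, and those of 2 naive-like ESC lines. All genes of the count table were compared, and 50 lists of genes grouped by function, kept apart from the known XEN and pluripotency markers, were used to read which functions set the cell types apart. Lines 1 and 2 of the pXEN cells were sequenced at passage 26 and line 3 at passage 23. Per the study's methods they came from the inner cell masses of parthenogenetic blastocysts, whose embryos have no sperm genome, and grew on mitomycin C-treated mouse embryonic fibroblasts in LCDM medium with serum, knockout serum replacement, LIF, the GSK3 inhibitor CHIR99021, (S)-(+)-dimethindene maleate, minocycline and the ROCK inhibitor Y27632. The naive-like ESC lines 1 and 2, at passages 21 and 22, also came from inner cell masses and grew on mouse embryonic fibroblasts, in LBX medium with FGF, LIF, the MEK inhibitor PD0325901, CHIR99021, the TGFβ receptor inhibitor SB431542 and doxycycline. LIF and CHIR99021 were thus in both media, with CHIR99021 at a higher concentration in that of the naive-like ESCs. The MEK inhibitor and the TGFβ receptor inhibitor were in the medium of the naive-like ESCs only, and the base media differed too. Cell type, medium and derivation changed together and cannot be told apart. The 2 primed ESC lines, at passage 20, were converted from naive-like ESCs and grew on STO cells in a medium without those inhibitors, and they enter only the estimate of the spread and a few values given beside a result.

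Extraembryonic endoderm arises from the hypoblast, the layer of the inner cell mass that faces the blastocoel. Its parietal part secretes a basement membrane rich in laminin and type IV collagen, and its visceral part is an absorptive epithelium that takes up maternal proteins, digests them in lysosomes and, as the lining of the yolk sac, makes many of the plasma proteins that the liver makes later. GATA4, GATA6 and SOX17 are the transcription factors that define the lineage, and SOX2 is a core factor of pluripotent and of neural cells.

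The libraries held between 10408164 and 12995720 counts on genes, and 3 counts, taken as the floor of detection, amount to between 0.224 and 0.307 CPM, the counts scaled to library size. Below, counts are given in the order pXEN lines 1, 2 and 3 against naive-like ESC lines 1 and 2. The labels were checked against 3 markers. SOX17 had 6923, 6364 and 7281 counts in the 3 pXEN lines and none in the naive-like ESC lines. GATA4 had 4828, 4436 and 5392 counts in the pXEN lines and 0 and 2 in the naive-like ESC lines. SOX2 had 0, 30 and 0 counts in the pXEN lines and 1633 and 1940 in the naive-like ESC lines. All 3 markers followed the labels, and pXEN line 2 was the pXEN line with SOX2 reads. The same line had 38 counts on genes of chromosome Y, against 1 and 3 in pXEN lines 1 and 3 and 11 and 4 in the naive-like ESC lines. Of the known XEN markers, a list that the study drew up with these samples and that is no independent evidence, 16 of the 17 tested were higher in pXEN cells. Of the known pluripotency markers, 11 of the 21 tested were higher and 7 lower in pXEN cells, so the list did not move in 1 direction. POU5F1, the core pluripotency factor OCT4, had 0, 0 and 3 counts against 0 and 2 and was too low to be tested. NANOG, another core factor, had 177, 60 and 166 counts against 0 and 2, whereas ESRRB, a factor of naive pluripotency, had no count against 26 and 17. By these counts the naive-like ESC lines were near the floor for 2 of the 3 core factors and carried SOX2. The study's immunofluorescence, RT-PCR and Western blots instead found OCT4, SOX2 and NANOG in naive-like ESCs and not in pXEN cells. The counts of POU5F1 and NANOG differ from those measures, and the reason was not tested.

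Markers of other cells were examined next. Of 15 tested fibroblast and feeder markers, 5 were higher and 5 lower, and the list took 0.0108%, 0.0888% and 0.0139% of the counts in pXEN lines 1, 2 and 3 and 0.149% and 0.173% in the naive-like ESC lines. Most of the excess of pXEN line 2 lay in COL3A1, with 20, 4251 and 203 counts in the pXEN lines and 4 and 3 in the naive-like ESC lines, and COL1A2, with 13, 1237 and 27 and 381 and 342. In the naive-like ESC lines VIM, an intermediate filament of many undifferentiated cells as well as of fibroblasts, held most of the list's counts, with 15490 and 16825 against 172, 1259 and 225 in the pXEN lines. DCN, with 1, 24 and 6 counts in the pXEN lines, and LUM had no count in the naive-like ESC lines. Without pXEN line 2, 8 of the fibroblast markers were lower, and without naive-like ESC line 1 none was higher and 3 were lower. Without naive-like ESC line 2, 3 were higher and 3 lower. Of the 10 tested trophectoderm markers, 3 were higher and 3 lower, and CDX2 and HAND1 had no count in any of the 5 lines. Of the 9 tested mesoderm and blood markers, 2 were higher and 1 lower, and the blood genes TAL1, GATA1, HBB and HBE1 had no count. The part of such cells in the results was not tested. In bulk samples, fewer cells of a type and less RNA per cell cannot be told apart.

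Between pXEN cells and naive-like ESCs, 4937 of 17447 genes tested were higher in pXEN cells, which is 28.3%, and 4577 were lower, which is 26.2% (quasi-likelihood test of edgeR, p adjusted by Benjamini-Hochberg and below 0.05). Past a log2 fold change of 3, 1756 genes were higher, which is 10.1%, and 1119 were lower, which is 6.41%. Among the genes called higher, 506 had no count in either naive-like ESC line, and 338 of the genes called lower had no count in any pXEN line. For such genes the fitted fold change is not a measured size, and the bound against the floor of 3 counts per library is given in its place. With the genes without a count at their bound, 1602 genes were higher and 961 lower past a log2 value of 3. At 3 or fewer counts in every library of the lower group, those without a count included, were 955 of the genes called higher. The same held for 683 of the genes called lower. For a gene with 1 to 3 counts at most in each library of the lower group, the ratio of the summed counts scaled to library size is given with its exact 95% counting interval, which covers counting error only. Such a ratio rests on very few reads, and the lower end of its interval is read as the lower bound. It is not held to the floor, so it can exceed the bounds of genes without a count and is not compared with them. The libraries of the types did not overlap for 9492 of the 9514 genes called. A call favours such genes, so this adds no support to the calls, and the share over all genes tested was not counted. Because most genes tested were called, every count of a list from this fit is read against 28.3% and 26.2%. Counts from another fit are read against its own calls over all genes. Of the 17447 genes tested, upper-quartile scaling called 4348 higher and 5621 lower. The test of edgeR against a fold of 2 called 2773 higher and 1785 lower.

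In 23 of the 50 function lists the share of members higher in pXEN cells was above that over all genes and the share of members lower was below it, and in 17 lists the reverse held. In 7 lists both shares were above, and in 3 both were below. The lists with the largest shares of members higher were those of plasma carriers, apolipoproteins, keratins, lysosome, cholesterol synthesis, basement membrane, cell junctions and the brush border. The lists with the largest shares of members lower were ribosome assembly, neurotransmitter receptors, neural transcription factors, heat shock chaperones, oxidative phosphorylation and synapse. The number of tested members ran from 12 to 60 per list, and a share over the tested members leaves out those that the filter on low counts removed. Upper-quartile scaling in place of TMM moved the median of all genes to −0.16 on the log2 scale, so small shifts of a list are read relative to that value.

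**Figure D1:**
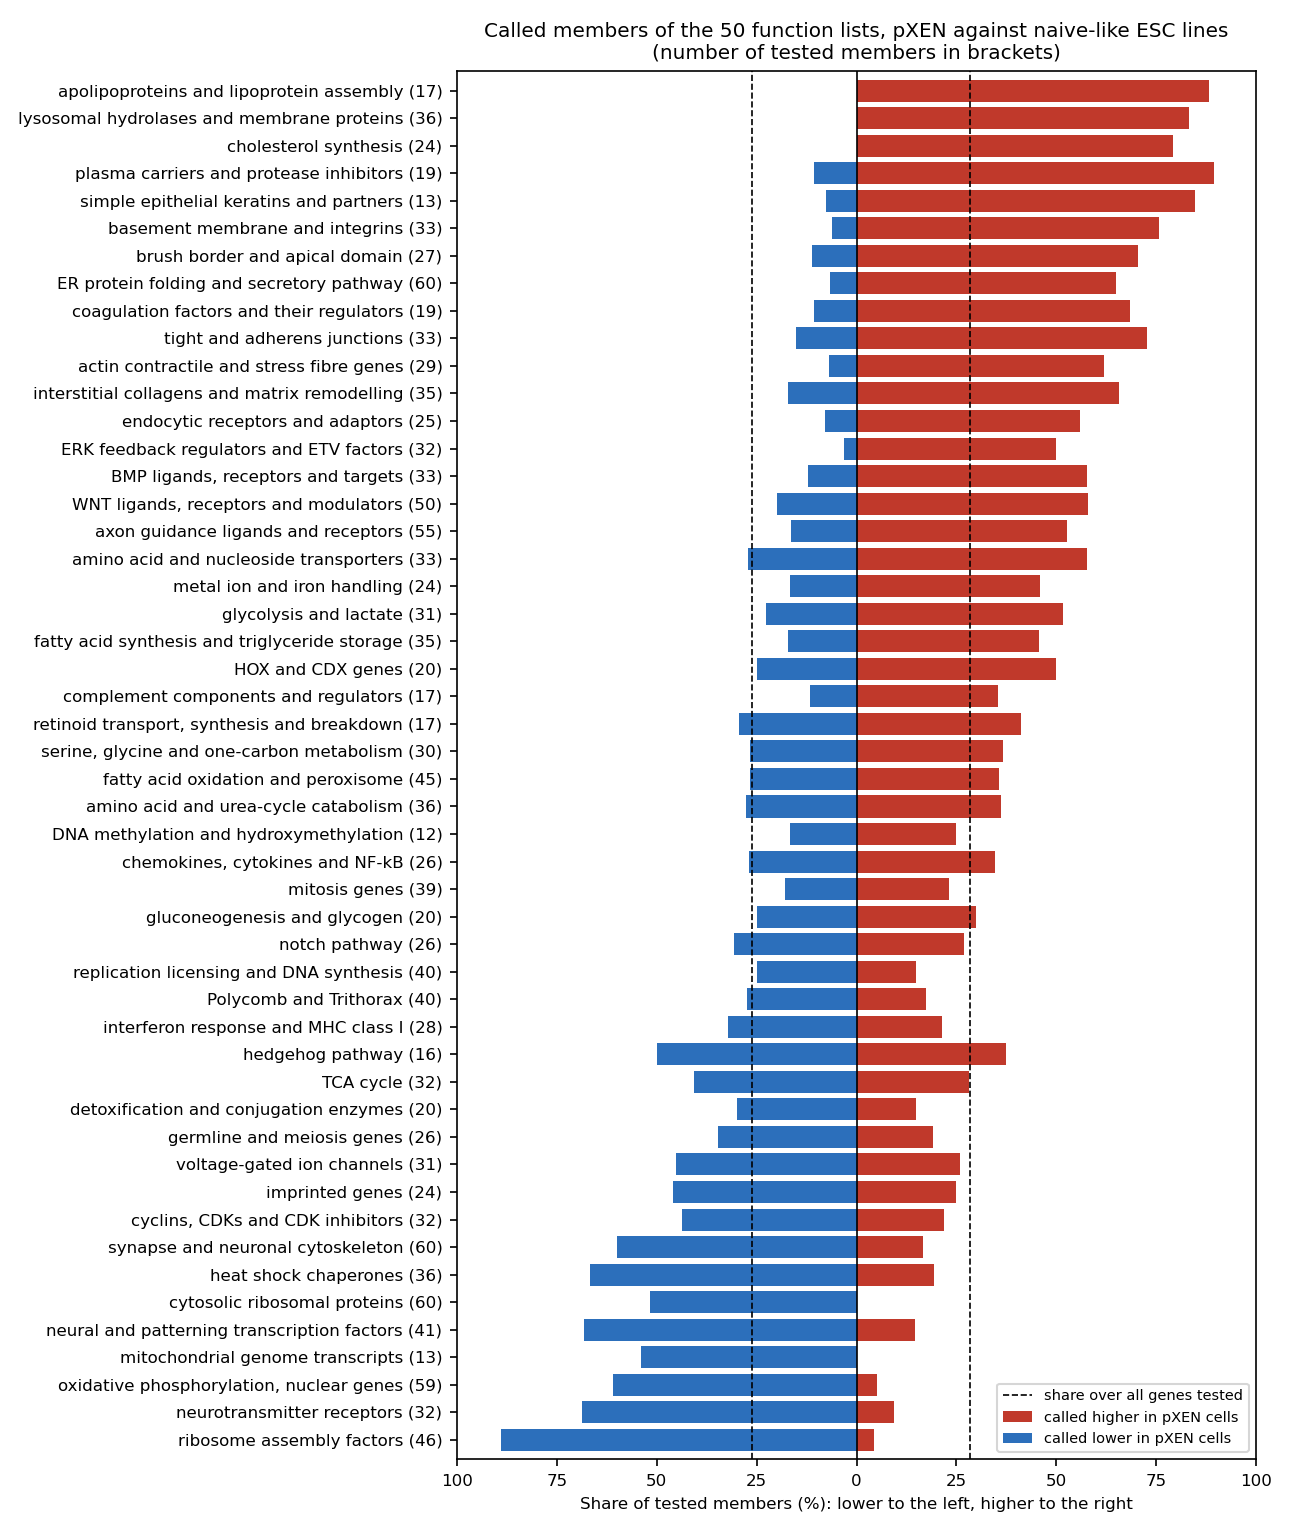
Share of the tested members of each of the 50 function lists called higher in pXEN cells (red, to the right) or lower (blue, to the left), in percent, with the number of tested members in brackets and dashed lines at the shares over all genes tested, 28.3% and 26.2%. Apolipoproteins, lysosome and cholesterol synthesis have no member lower, and ribosomal proteins and mitochondrial transcripts have none higher.

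By the change in the share of all counts, a ranking made after the values were seen, FN1, KRT8, APOE, COL4A1, COL4A2 and KRT18 led the genes higher in pXEN cells. FN1, which encodes the matrix glycoprotein fibronectin, took 2.33%, 2.24% and 2.14% of the counts in the pXEN lines and 0.116% and 0.18% in the naive-like ESC lines. KRT8, an intermediate filament of simple epithelia, took 1.25%, 1.42% and 1.15% in the pXEN lines and 0.00347% at most in the naive-like ESC lines. On the FPKM scale, which divides by gene length, APOE was the fourth highest of all genes in pXEN cells, at 8495 ± 484 FPKM (SD, n = 3 lines) against 1.14 ± 0.138 FPKM in naive-like ESCs (SD, n = 2 lines). By the same ranking MT-CO1, EF1ALPHA, HSPCB, MT-CO3 and NPM1 led the genes lower in pXEN cells. MT-CO1, a complex IV subunit encoded by the mitochondrial genome, took 0.638%, 1.37% and 0.699% of the counts in the pXEN lines and 2.14% and 2.17% in the naive-like ESC lines, with pXEN line 2 the nearest to them. EF1ALPHA, the translation elongation factor EEF1A1, took 1.05%, 1.31% and 1.08% of the counts in the pXEN lines and 2.35% and 2.36% in the naive-like ESC lines. HSPCB, the cytosolic chaperone HSP90AB1, took 0.228%, 0.258% and 0.229% against 0.83% and 0.807%, and NPM1, a nucleolar chaperone on chromosome 16, took 0.0807%, 0.0964% and 0.0752% against 0.441% and 0.416%.

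Apolipoprotein genes were higher in most tested members. Of 17 tested apolipoproteins and lipoprotein assembly genes, 15 were higher and none lower, with a median log2 fold change of 8.13 (5.61 with the 7 genes absent from the naive-like ESC lines at their bound). The list took 1.02%, 0.914% and 1.06% of the counts in pXEN lines 1, 2 and 3 and 0.0115% and 0.0145% in naive-like ESC lines 1 and 2, and APOE alone held 88.3% of its reads in the pXEN lines. APOE, at chr6:47269970-47272195 on the Sscrofa10.2 assembly, encodes the apolipoprotein that carries lipoprotein remnants to their receptors on cells. The gene had 93253, 101147 and 108255 counts against 14 and 16. Its log2 fold change was 12.84 (SE 0.26, adjusted p = 1.82e-07, edgeR's quasi-likelihood test), and the spread within each type was small beside it. APOB, the structural protein of very low density lipoprotein and chylomicrons, had 347, 795 and 391 counts in the pXEN lines and none in the naive-like ESC lines, at least 185-fold higher (adjusted p = 4.64e-05). APOA2, of high density lipoprotein, had 562, 2190 and 631 counts against 0 and 1, with line 2 the highest, and its ratio was 2482 (95% interval 445 to 98059.7). The members that were not called were APOD and SOAT1.

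All 19 tested plasma carriers and protease inhibitors were called, 17 higher and 2 lower in pXEN cells, with a median log2 fold change of 9.30 (5.52 at the bound of the 11 genes without a count in the naive-like ESC lines). SERPINA1, alpha-1-antitrypsin, at chr7:122616093-122621528, had 8976, 40767 and 8354 counts in the pXEN lines and none in the naive-like ESC lines, so it was at least 6895-fold higher (adjusted p = 0.000561). Line 2 alone held most of those reads, and the mean behind that bound rests on it. TF, transferrin, the iron carrier of plasma, lies on chromosome 13 and had 5371, 10017 and 5836 counts against none, at least 2568-fold higher (adjusted p = 3.50e-06). AMBP, the precursor of alpha-1-microglobulin and bikunin, had 704, 1365 and 999 counts against none, at least 371-fold higher, and HPN, the membrane serine protease hepsin, had 1194, 1090 and 1269 against none, at least 436-fold higher (adjusted p = 2.04e-05 and 4.18e-06). The members lower in pXEN cells were both acute-phase proteins. HP, haptoglobin, had 9, 17 and 13 counts in the pXEN lines and 45 and 47 in the naive-like ESC lines (log2 fold change −1.69, adjusted p = 0.00724). CP, the copper oxidase ceruloplasmin on chromosome 13, had 40, 32 and 40 counts against 487 and 53. Its call rested on naive-like ESC line 1, without which the log2 fold change was −0.39 (adjusted p = 0.499) and 1 member of the list was lower.

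The clotting system was less uniform. Of 19 tested coagulation factors and their regulators, 13 were higher and 2 lower, with a median of 3.40. F2, prothrombin, had 2379, 2371 and 2927 counts in the pXEN lines and 2 and 2 in the naive-like ESC lines, a ratio of 1408 (95% interval 549.7 to 5169; adjusted p = 3.10e-07). PROC, the anticoagulant protease protein C, had 1596, 1792 and 1925 counts against 3 and 1, a ratio of 974 (interval 380.4 to 3578). SERPINF2, the plasmin inhibitor, had 1670, 1233 and 1984 counts against 16 and 10 (log2 fold change 7.11, SE 0.41). F13A1, the A subunit of the clot-crosslinking factor XIII, went the other way, with 0, 2 and 0 counts in the pXEN lines and 63 and 77 in the naive-like ESC lines. Of 17 tested complement genes, 6 were higher and 2 lower. The complement inhibitor CD55 had 135, 99 and 152 counts in the pXEN lines against 0 and 3, while CD46, another inhibitor on the cell surface, had none in the pXEN lines against 57 and 66, at least 18.6-fold lower (adjusted p = 0.000217), and CD59 had 57, 128 and 100 against 390 and 274 (log2 fold change −1.68). Of the 3 surface inhibitors, CD55 was thus higher in pXEN cells and the other two lower. The count of coagulation members lower was 1 without pXEN line 1, pXEN line 3 or naive-like ESC line 2.

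**Figure D2:**
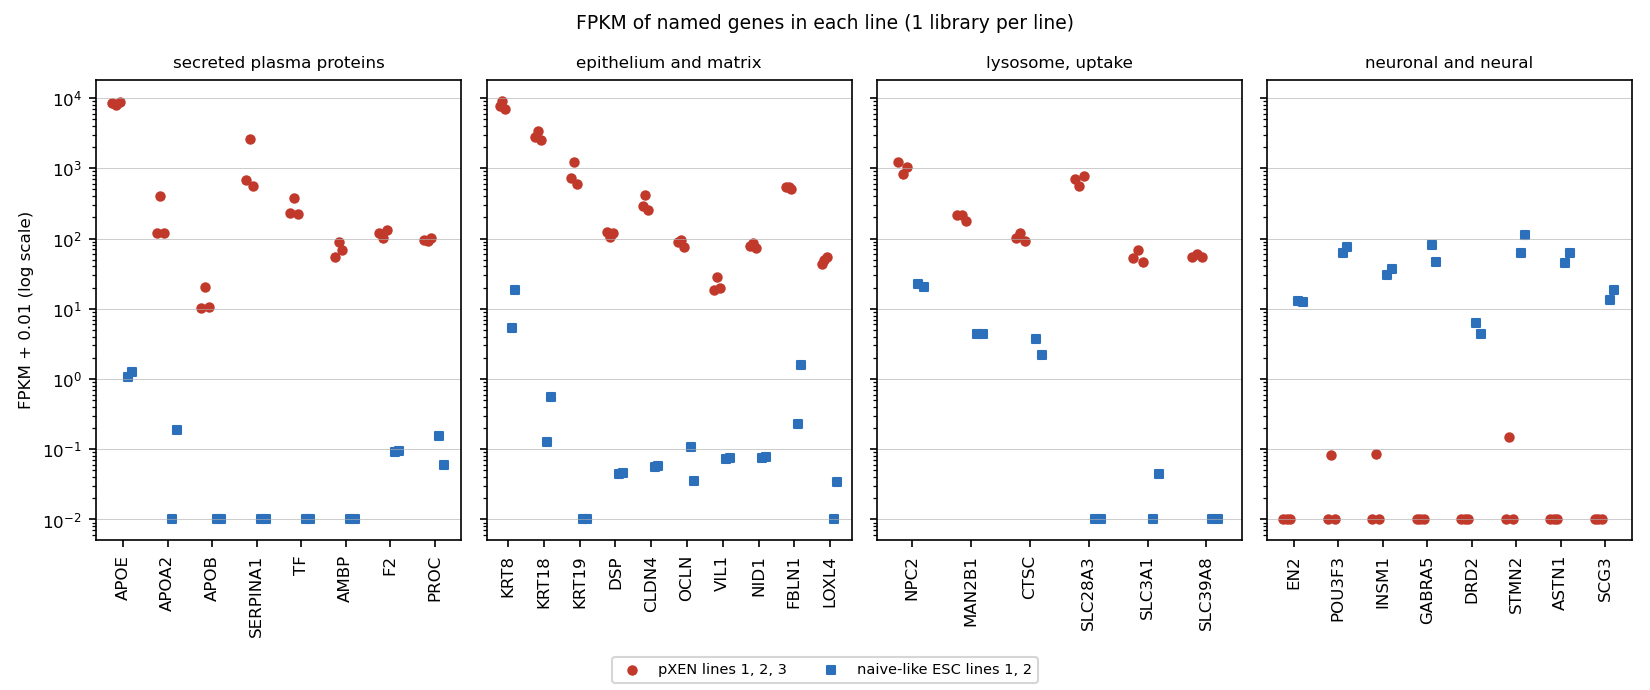
FPKM + 0.01 on a log scale for named genes in each line, with pXEN lines 1 to 3 as red circles and naive-like ESC lines 1 and 2 as blue squares, and points at 0.01 standing for no reads. The genes were chosen for types that do not overlap, and SERPINA1, APOA2 and APOB are highest in pXEN line 2.

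Of 36 tested genes for lysosomal hydrolases and lysosomal membrane proteins, 30 were higher and none lower in pXEN cells, with a median log2 fold change of 1.47. The list took 0.701%, 0.700% and 0.650% of the counts in pXEN lines 1, 2 and 3 and 0.20% and 0.183% in naive-like ESC lines 1 and 2. MAN2B1, the lysosomal alpha-mannosidase, had 6749, 7869 and 6222 counts in the pXEN lines and 169 and 160 in the naive-like ESC lines (log2 fold change 5.54, SE 0.15, adjusted p = 3.22e-07). NPC2, which hands cholesterol out of the lysosome, had 18608, 14515 and 17344 counts against 421 and 357 (log2 fold change 5.59, adjusted p = 1.18e-06). CTSC, the dipeptidyl peptidase cathepsin C, had 1894, 2616 and 1911 counts against 84 and 47, and GLB1, beta-galactosidase, had 406, 428 and 405 counts against 71 and 46.

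Of 25 tested endocytic receptors and adaptors, 14 were higher and 2 lower, with smaller differences (median 0.85). AMN, the partner of the scavenger receptor cubilin, had 78, 161 and 84 counts in the pXEN lines and none in the naive-like ESC lines, at least 39-fold higher (adjusted p = 0.000319). FCGRT, the receptor that recycles IgG and albumin, had 1199, 1598 and 1441 counts against 487 and 328 (log2 fold change 1.93). The members lower in pXEN cells were the adaptor subunit AP2A1, at a log2 fold change of −0.56, and IGF2R, the receptor for IGF2 and for mannose 6-phosphate, at −0.65. IGF2R carries newly made hydrolases to the lysosome, and its direction was opposite to that of the hydrolases. Leaving out pXEN line 2 gave 4 members lower.

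Of 33 tested amino acid and nucleoside transporters, 19 were higher and 9 lower, and the list took 0.695%, 0.657% and 0.701% of the counts in pXEN lines 1, 2 and 3 and 0.153% and 0.152% in naive-like ESC lines 1 and 2. SLC28A3, a sodium-coupled nucleoside carrier at chr10:34734230-34768182, had 17364, 15999 and 21101 counts in the pXEN lines and none in the naive-like ESC lines, at least 6680.2-fold higher (adjusted p = 2.48e-06). SLC3A1 and SLC7A9 encode the subunits of the apical exchanger of cystine and dibasic amino acids in kidney and gut, and both were higher in pXEN cells. SLC3A1 had 1302, 1974 and 1254 counts against 0 and 1, and SLC7A9 had 3256, 1977 and 3716 counts against 1 and 7. On the other side SLC6A15, a carrier of neutral amino acids known from neurons, had no count in the pXEN lines and 749 and 687 in the naive-like ESC lines, at least 217-fold lower (adjusted p = 2.06e-06), and SLC7A3, an arginine carrier, had 1, 2 and 3 against 100 and 115. The phosphate carrier SLC34A2 had 4205, 8807 and 3250 counts against 1 and 0.

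Metal handling genes were also mostly higher among those called, with 11 of 24 tested members higher and 4 lower. The zinc importer SLC39A8 had 941, 1224 and 1042 counts in the pXEN lines and none in the naive-like ESC lines, at least 391-fold higher (adjusted p = 7.50e-07). The zinc importer SLC39A5 had 789, 1076 and 735 counts against 8 and 4, and ZIP4, the name in the table for SLC39A4 of the gut, had 1655, 1947 and 1082 counts against 26 and 20. A further importer of the family, SLC39A6, was lower, with 127, 135 and 143 counts against 893 and 945 (log2 fold change −2.63, adjusted p = 2.53e-06). TFR2, the transferrin receptor that senses iron in liver, had 107, 88 and 118 counts against 0 and 2, a ratio of 115 (interval 31.5 to 952). In the retinoid list, 7 of 17 tested members were higher and 5 lower. Without pXEN line 1, 7 were higher and 3 lower, and without pXEN line 2, 7 were higher and 7 lower. CYP26A1, which breaks down retinoic acid, had 584, 194 and 702 counts against 2 and 0, and the retinaldehyde reductase DHRS3 had 323, 325 and 339 against 10 and 8. LRAT, which esterifies retinol for storage, was lower, with 24, 17 and 12 against 288 and 274 (log2 fold change −3.83), as was the retinoic acid receptor RARB on chromosome 13, with 42, 66 and 36 against 145 and 168. Of 20 tested cytochrome P450 and conjugation enzymes, a liver function of another kind than the plasma proteins, 3 were higher and 6 lower, or 4 and 5 with DESeq2 and 4 and 4 with the replicate block. Leaving out pXEN line 2 gave 5 higher and 9 lower and leaving out naive-like ESC line 1 gave 3 and 3, whereas the list turned to 5 higher and 4 lower without naive-like ESC line 2 and to 3 and 1 against a fold of 2. NQO1, a quinone reductase, had 929, 1351 and 1024 counts against 183 and 160 (log2 fold change 2.81), and the microsomal P450 gene CYP2U1 had 17, 26 and 21 against 85 and 82 (log2 fold change −1.83).

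Genes of simple epithelia were higher in most tested members. Of 13 tested simple epithelial keratins and partners, 11 were higher and 1 lower in pXEN cells, with a median log2 fold change of 5.58. The list took 1.96%, 2.23% and 1.81% of the counts in pXEN lines 1, 2 and 3 and 0.0101% and 0.0180% in naive-like ESC lines 1 and 2, and KRT8 held 63.7% of its reads in the pXEN lines. KRT18, which pairs with KRT8 in simple epithelia, lies at chr5:18725320-18729778 and had 38324, 54370 and 39448 counts in the pXEN lines and 2 and 9 in the naive-like ESC lines (log2 fold change 13.07, SE 0.39, adjusted p = 4.43e-07). KRT19 had 9999, 20037 and 9140 counts against none, at least 4735-fold higher (adjusted p = 7.48e-06), with pXEN line 2 the highest. DSP, the desmosomal plaque protein desmoplakin, had 11571, 11772 and 12619 counts against 4 and 4 (log2 fold change 11.65, SE 0.23). DSC3, a desmosomal cadherin of stratified epithelia, was the member lower in pXEN cells, with 19, 24 and 20 counts against 280 and 527, and PKP1 was not called.

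Of 33 tested tight and adherens junction genes, 24 were higher and 5 lower, with a median of 2.05. CLDN4, a claudin of the tight junction, had 5155, 8685 and 5032 counts against 1 and 1. OCLN, the tight junction protein occludin, lies on chromosome 16 and had 3010, 3682 and 2839 counts against 4 and 1. TACSTD1, the name in the table for the epithelial adhesion molecule EPCAM, had 7684, 8699 and 8543 counts against 15 and 7 (log2 fold change 9.69, SE 0.23, adjusted p = 2.72e-07). CDH11, a cadherin of mesenchyme, was lower, with 182, 283 and 257 counts against 3514 and 3992 (log2 fold change −3.84, adjusted p = 1.43e-06), and so was the nectin PVRL1, with 1, 14 and 6 counts against 132 and 181. With pXEN line 3 or either naive-like ESC line left out, 3 junction members were lower. Of 27 tested genes of the brush border and apical domain, 19 were higher and 3 lower, with a median of 4.48 (3.70 at the bound of 7 genes). VIL1, villin, which bundles actin in microvilli, had 488, 876 and 571 counts against 2 and 2, and PDZK1, a scaffold below the apical membrane, had 234, 378 and 231 against none, at least 102-fold higher. The membrane peptidases of the list were higher too. APN, aminopeptidase N, had 969, 1842 and 982 counts against 0 and 3, and MME, neprilysin on chromosome 13, had 3996, 3600 and 4334 counts against 18 and 29. PROM1, prominin 1, which marks the apical surface of neuroepithelium, was lower, with 9, 48 and 20 against 364 and 462 (log2 fold change −3.89). Of 29 tested actin contractile genes, 18 were higher and 2 lower, led by ANXA2, an actin- and membrane-binding annexin with 6828, 10544 and 6657 counts against 450 and 532, and the tropomyosin TPM1, with 5899, 8448 and 6262 against 445 and 642. The smooth muscle actin ACTG2 was lower, with 0, 88 and 9 counts against 1057 and 967. With pXEN line 2 left out, 5 actin genes were lower.

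Basement membrane and integrin genes other than the known markers took 3.27%, 2.97% and 3.04% of the counts in pXEN lines 1, 2 and 3 and 0.202% and 0.275% in naive-like ESC lines 1 and 2. The fibronectin gene FN1 alone held 72.5% of these reads in the pXEN lines. Of 33 tested, 25 were higher and 2 lower, with a median of 3.51 (3.10 at the bound). NID1, nidogen, which links laminin to type IV collagen, had 976, 1257 and 1014 counts in the pXEN lines and 1 and 1 in the naive-like ESC lines, a ratio of 1191 (interval 329 to 9839; adjusted p = 3.22e-07). FBLN1, fibulin 1, had 12394, 14364 and 12957 counts against 6 and 42. CD61, the name in the table for the integrin subunit ITGB3, had 1872, 1839 and 2166 counts against 6 and 8 (log2 fold change 8.24, SE 0.21). The integrin subunits lower in pXEN cells were ITGA4, with 16, 18 and 34 against 539 and 437 (log2 fold change −4.28), and ITGB8, with 4, 47 and 3 against 116 and 230 (log2 fold change −3.17, adjusted p = 0.0167), with line 2 the highest pXEN line. The call of ITGB8 was lost without naive-like ESC line 2 (adjusted p = 0.107), which left 1 member lower.

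Interstitial collagens and matrix remodelling genes were higher in 23 of 35 tested members and lower in 6, with a median of 2.18. LOXL4, which crosslinks collagen, had 1473, 1963 and 2103 counts against 0 and 1, a ratio of 4064 (interval 729 to 160535). MMP14, a metalloprotease anchored in the membrane, had 5835, 4567 and 5747 counts against 57 and 97 (log2 fold change 6.27), and its relative MMP15 had 3303, 2218 and 4520 counts against 21 and 48 (log2 fold change 6.74). COL5A2, a fibrillar collagen chain, was lower, with 79, 434 and 85 counts against 1166 and 1477. Without naive-like ESC line 1, 3 members were lower. For the fibroblast collagens COL1A1 and COL3A1, which belong to this list too, line 2 was again highest, with 39, 407 and 40 counts of COL1A1 in the pXEN lines, whereas NID1, LOXL4 and MMP14 were also high in lines 1 and 3. GPC3, a heparan sulfate proteoglycan of the cell surface, was among the 15 leading genes over all genes, with 15169, 13515 and 19573 counts against 9 and 13.

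**Figure D3:**
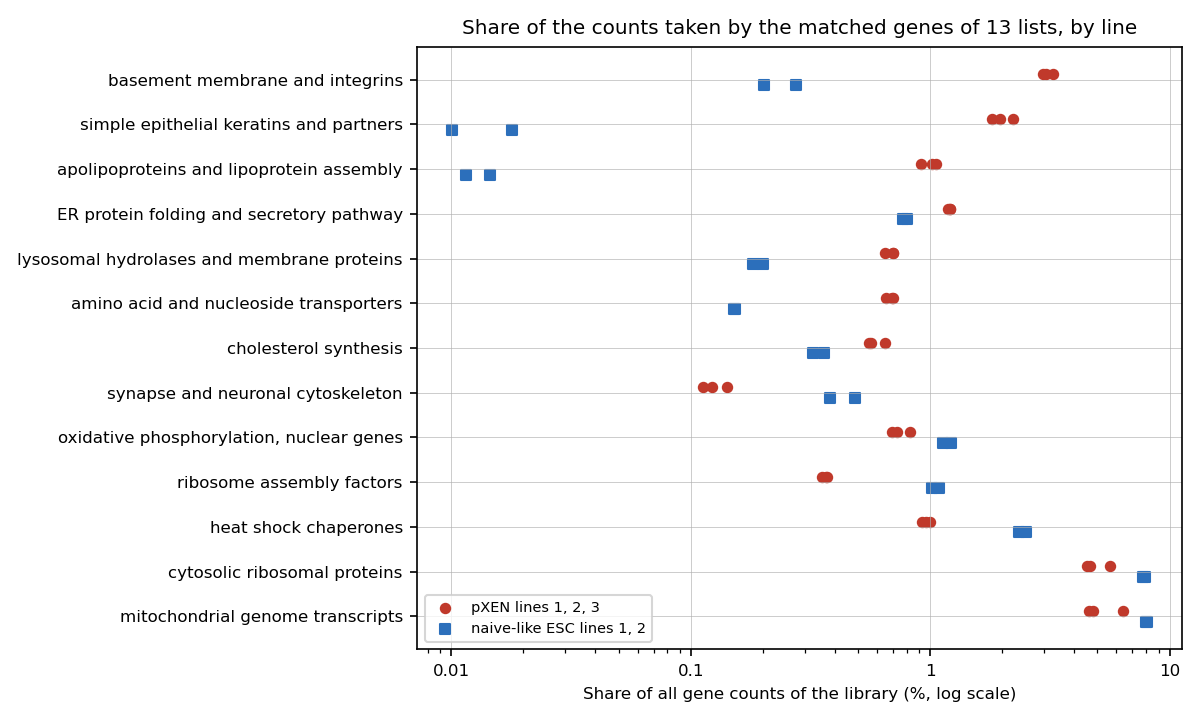
Share of all gene counts of a library, in percent on a log scale, taken by the matched genes of 13 lists, with pXEN lines 1 to 3 as red circles and naive-like ESC lines 1 and 2 as blue squares. The 5 lines separate by type in each list, and the keratin and apolipoprotein lists are below 0.02% in both naive-like ESC lines.

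Many neural genes were lower in pXEN cells, and the leading ones had few or no reads there. Of 41 tested neural and patterning transcription factors, 28 were lower and 6 higher in pXEN cells, with a median log2 fold change of −3.99 (−3.20 with 10 genes absent from pXEN lines at their bound). The list took 0.0974%, 0.0872% and 0.111% of the counts in pXEN lines 1, 2 and 3 and 0.156% and 0.150% in naive-like ESC lines 1 and 2, and a single member held 45.9% of its reads in the pXEN lines. EN2, a homeobox factor of the midbrain and hindbrain, had no count in any pXEN line and 677 and 647 in naive-like ESC lines 1 and 2, at least 199.7-fold lower (adjusted p = 2.08e-06). POU3F3, a POU factor of neural progenitors, had 0, 1 and 0 counts against 908 and 1068, and INSM1, which drives neuroendocrine differentiation, 0, 1 and 0 against 419 and 501. The single reads of both lay in pXEN line 2. HESX1 and LHX1, homeobox factors of the anterior visceral endoderm as well as of forebrain and kidney, were higher in pXEN cells. HESX1 had 173, 519 and 207 counts against 7 and 4, and LHX1 had 971, 407 and 1304 counts against 15 and 9.

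Of 32 tested neurotransmitter receptors, 22 were lower and 3 higher, with a median of −4.11 (−2.27 at the bound of 13 genes). GABRA5, a GABA-A receptor subunit at chr1:156791277-156874257, had no count in the pXEN lines and 2841 and 1555 in the naive-like ESC lines, at least 659-fold lower (adjusted p = 1.08e-05). DRD2, the D2 dopamine receptor, had none against 190 and 127, at least 47.6-fold lower, and GABRA2 none against 114 and 83, at least 29.6-fold lower. The members higher in pXEN cells, GABBR1, GRIN2D and GRM7, had few reads. GRIN2D, a glutamate receptor subunit, had 18, 30 and 28 counts against 8 and 6, and its call was lost without naive-like ESC line 1 or 2 (adjusted p = 0.0565 and 0.0810). Without naive-like ESC line 1, none of the receptors was higher. Of 60 tested synapse and neuronal cytoskeleton genes, 36 were lower and 10 higher. STMN2, a tubulin-binding protein of growth cones, had 0, 4 and 0 counts in the pXEN lines and 1854 and 3227 in the naive-like ESC lines (log2 fold change −10.65, SE 0.52). ASTN1, which guides migrating neurons along glia and has 2 entries in the table, had none in the leading entry against 853 and 1154, at least 304-fold lower, and SCG3, a granin of secretory granules, none against 693 and 929, at least 246-fold lower. CHGB, another granin, was higher in pXEN cells, with 161, 162 and 567 counts against 5 and 9. The microtubule protein MAP1B, on chromosome 16, had 265, 91 and 319 counts against 18478 and 21451 and was the member of the list with the largest change in share of reads. Of 31 tested voltage-gated channel genes, 14 were lower and 8 higher, with the potassium channel KCNH2 at 0, 3 and 2 counts against 85 and 103 and the accessory subunit KCNE3, known from epithelia, at 692, 338 and 1100 against 5 and 2. The receptor list took 0.00546%, 0.00271% and 0.00610% of the counts in pXEN lines 1, 2 and 3 and 0.0411% and 0.0315% in naive-like ESC lines 1 and 2, and the synapse and neuronal cytoskeleton list took 0.122%, 0.112% and 0.142% of the counts in pXEN lines 1, 2 and 3 and 0.381% and 0.485% in naive-like ESC lines 1 and 2.

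Axon guidance genes, in spite of the name of the list, were mostly higher in pXEN cells, with 29 of 55 tested members higher and 9 lower (median 1.24). These ligands and receptors act in many epithelia. UNC5D, a netrin receptor, had 1296, 1730 and 1059 counts in the pXEN lines and 1 and 0 in the naive-like ESC lines, a ratio of 2997 (interval 538 to 118402). The ephrin receptor EPHA1 had 1364, 992 and 1453 counts against 8 and 2, and its relative EPHB6 had 1171, 1557 and 1139 counts against 3 and 11. SLIT3, a secreted ligand on chromosome 16, had 1612, 1214 and 1853 counts against 35 and 43. SEMA5B, a semaphorin on chromosome 13, was lower, with 0, 1 and 0 counts against 1068 and 1360, a ratio of 3309 (interval 593 to 130771). HOX genes, which set position along the body axis, split within a cluster, with 10 of 20 tested members higher and 5 lower. HOXD13 had 513, 959 and 784 counts in the pXEN lines and none in the naive-like ESC lines, at least 273-fold higher (adjusted p = 1.54e-05), while genes at the other end of the same cluster on chromosome 15 were lower. HOXD3 had 7, 5 and 4 counts against 202 and 270 (log2 fold change −5.30), and HOXD4 had 6, 3 and 11 counts against 285 and 355 (log2 fold change −5.42). HOXB9 was higher, with 759, 650 and 751 counts against 1 and 6, as was HOXB4, with 88, 99 and 83 counts against 2 and 4. Without naive-like ESC line 1 the list turned to 4 higher and 5 lower, and without line 2, 6 were higher.

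In energy metabolism, most of the called transcripts for respiration were lower in pXEN cells, by small folds. Of 59 tested nuclear genes of oxidative phosphorylation, 36 were lower and 3 higher, with a median log2 fold change of −0.52, and 1 was lower in edgeR's test against a fold of 2. Under upper-quartile scaling, whose shift of all genes was −0.16, 44 were lower and 3 higher with a median of −0.69. Without naive-like ESC line 1, 20 were lower. UQCR11, a subunit of complex III, had 276, 612 and 342 counts against 1901 and 1779 (log2 fold change −2.05, adjusted p = 0.000265), and UQCRFS1, of the same complex, had 2384, 3334 and 2553 counts against 6847 and 6601 (log2 fold change −1.15, adjusted p = 0.000120). NDUFV1, of complex I, had 884, 1034 and 852 against 2395 and 2066 (log2 fold change −1.13). Of the 13 genes of the mitochondrial genome, 7 were lower and none higher, and none passed the test against a fold of 2. MT-CO1, a subunit of complex IV, had 66452, 173256 and 79814 counts against 242773 and 234031 (log2 fold change −1.05, adjusted p = 0.0235), and pXEN line 2 lay between the other pXEN lines and the naive-like ESC lines. The adjusted p of MT-CO1 was 4.30e-07 without pXEN line 2 and between 0.0594 and 0.0888 without any other of the 5 lines. The mitochondrial transcripts took 4.77%, 6.37% and 4.62% of the counts in pXEN lines 1, 2 and 3 and 7.98% and 8.07% in naive-like ESC lines 1 and 2. Without pXEN line 2, 11 of the 13 were lower, and without pXEN line 1, pXEN line 3, naive-like ESC line 1 or naive-like ESC line 2, 3, 4, 2 and 1 were lower.

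Of 31 tested glycolysis and lactate genes, 16 were higher and 7 lower, with a median of 0.82. The 3 glucose carriers of the list were among the higher ones. SLC2A1, the glucose carrier of most cells, had 2769, 3098 and 2783 counts against 75 and 86 (log2 fold change 5.30, adjusted p = 5.40e-07). SLC2A3, a carrier of high affinity, had 29756, 26662 and 32721 counts against 3615 and 3250 (log2 fold change 3.26, adjusted p = 2.64e-06). SLC2A2, the carrier of liver and pancreatic beta cells, on chromosome 13, had 87, 226 and 62 counts against none, at least 45.1-fold higher. Of the enzymes that commit glucose to glycolysis, HK2, hexokinase 2, was lower, with 214, 236 and 341 counts against 950 and 965 (log2 fold change −1.73), and PFKP, the platelet form of phosphofructokinase, had 0, 5 and 3 against 227 and 119 (log2 fold change −5.82). In the tricarboxylic acid cycle list, 13 of 32 tested members were lower and 9 higher, or 17 and 7 under upper-quartile scaling. In the test against a fold of 2, 2 members were lower and 5 higher, beside 1785 lower and 2773 higher of the 17447 genes tested. Neither share of the list was above that over all genes there. SDHA and the pyruvate dehydrogenase subunits DLAT and PDHA1, all mitochondrial, were lower, at log2 fold changes of −1.21, −0.97 and −1.05. ME1, cytosolic malic enzyme, which makes NADPH, had 1684, 2655 and 1522 counts against 206 and 178 (log2 fold change 3.48), and IDH1, an isocitrate dehydrogenase, had 4940, 8520 and 4524 counts against 967 and 889 (log2 fold change 2.82). Gluconeogenesis and glycogen genes were near the background, with 6 of 20 tested members higher and 5 lower. PCK1, which starts gluconeogenesis, had 34, 69 and 42 counts against none, at least 17.5-fold higher, and the glycogen phosphorylase kinase subunit PHKA2 had 9, 11 and 30 against 2109 and 1469 (log2 fold change −6.60). Without pXEN line 2, 5 members of that list were higher and 9 lower, and upper-quartile scaling gave 5 and 6.

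**Figure D4:**
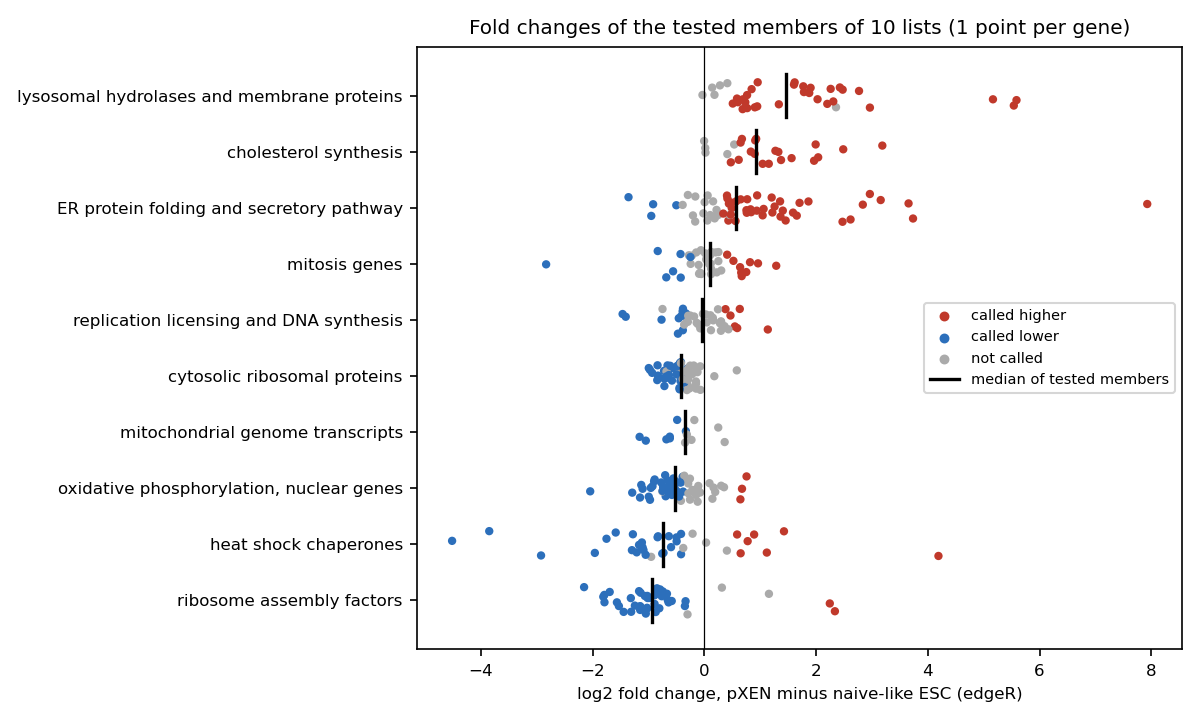
Log2 fold change between pXEN and naive-like ESC lines for each tested member of 10 lists, coloured by call (red higher, blue lower, grey not called), with black bars at the medians. The medians of lysosome, cholesterol synthesis and ER folding lie to the right of 0, those of mitosis and replication near 0, and those of ribosome assembly and heat shock chaperones to the left, and several lists have members on both sides.

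Of 24 tested cholesterol synthesis genes, 19 were higher and none lower in pXEN cells, with a median log2 fold change of 0.92, and 18 were higher under upper-quartile scaling. Against a fold of 2, 8 were higher. FDFT1, squalene synthase, had 3853, 4463 and 3912 counts in the pXEN lines and 1178 and 1081 in the naive-like ESC lines (log2 fold change 1.99, SE 0.10, adjusted p = 3.65e-06). SC5D, of the last steps, had 1078, 1206 and 1144 against 341 and 305 (log2 fold change 1.96), and the sterol carrier STARD4 498, 546 and 618 against 73 and 61 (log2 fold change 3.18). The members that were not called were IDI1, CYP51A1, HSD17B7, EBP and SCAP. Among 35 tested fatty acid synthesis and triglyceride storage genes, 16 were higher and 6 lower. CIDE-B, the lipid droplet protein CIDEB of liver, had 263, 246 and 263 counts against none, at least 94.9-fold higher (adjusted p = 9.06e-06). The fatty acid binding proteins named here lay on both sides. FABP1, of liver, had 50, 180 and 65 counts against none, at least 35.2-fold higher. FABP7, of brain, had 2, 9 and 13 counts against 708 and 1476, and FABP5, of epidermis, had 8, 29 and 15 counts against 1050 and 898. The 45 tested fatty acid oxidation and peroxisome genes were split, with 16 higher and 12 lower and a median of 0.03 that turned to −0.14 under upper-quartile scaling, where 14 were higher and 18 lower. Without naive-like ESC lines 1 or 2, 4 and 7 were lower. The 4 leading genes of the higher side, ACOX2, EHHADH, BDH1 and SLC25A20, all lie on chromosome 13. With chromosomes 13 and 16 left out, 11 members were higher and 11 lower, and without pXEN line 2, 16 and 16. OXCT1, which lets cells burn ketone bodies, lies on chromosome 16 and was lower, with 422, 692 and 492 counts against 2690 and 2159 (log2 fold change −2.05).

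Of 36 tested amino acid and urea-cycle genes, 13 were higher and 10 lower, and 6 of them had no count in either naive-like ESC line. CPS1, which brings ammonia into the urea cycle, had 249, 706 and 422 counts against none, at least 165-fold higher (adjusted p = 7.13e-05). OTC, the next enzyme of the cycle, had 67, 143 and 123 counts against none, at least 40.1-fold higher (adjusted p = 0.000246). AGMAT, agmatinase, had 434, 472 and 527 against none, at least 175-fold higher. Among 30 tested serine, glycine and single-carbon genes, 11 were higher and 8 lower. TDH, threonine dehydrogenase, on which mouse ESCs depend, had 1, 5 and 2 counts in the pXEN lines and 431 and 482 in the naive-like ESC lines (log2 fold change −7.23, SE 0.34, adjusted p = 2.67e-06). ALDH1L2, the mitochondrial enzyme that oxidises formyl-tetrahydrofolate, had 155, 269 and 162 against 6622 and 5011 (log2 fold change −4.76), whereas its cytosolic relative ALDH1L1 had 163, 204 and 182 against 64 and 40 (log2 fold change 1.95). CHAC1, which degrades glutathione and is a target of ATF4, had 552, 217 and 557 counts against none, at least 165-fold higher.

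Of 46 tested ribosome assembly factors, 41 were lower and 2 higher in pXEN cells, with a median log2 fold change of −0.94, or −1.11 under upper-quartile scaling. The list took 0.369%, 0.370% and 0.355% of the counts in pXEN lines 1, 2 and 3 and 1.08% and 1.02% in naive-like ESC lines 1 and 2. FBL, which methylates ribosomal RNA, had 1088, 1481 and 1160 counts in the pXEN lines and 4888 and 4548 in the naive-like ESC lines (log2 fold change −1.79, SE 0.11, adjusted p = 8.47e-06). DDX21, a nucleolar helicase, had 2574, 3294 and 2831 against 10879 and 9782 (log2 fold change −1.70). The members higher in pXEN cells were transcription factors of the MYC family, which drive these genes. MYCN had 2100, 1764 and 2182 counts against 451 and 490 (log2 fold change 2.24), and MYCL had 370, 261 and 475 counts against 64 and 97 (log2 fold change 2.34). The members not called were NOP58, NOP10 and MYC. Of 60 tested cytosolic ribosomal proteins, 31 were lower and none higher, with a median of −0.42, and none passed the test against a fold of 2. RPL3 had 16640, 20791 and 19197 against 34843 and 33396 (log2 fold change −0.72). Without pXEN line 2, 51 were lower, as under upper-quartile scaling, and with another of the 5 lines left out between 13 and 19 were lower. The 13 came without naive-like ESC line 1, and without pXEN line 1, naive-like ESC line 2 and pXEN line 3 the counts were 17, 16 and 19. Ribosomal proteins have many pseudogenes, and how the counting treated reads that match several places is not given in the sources used here.

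Of 60 tested genes of ER protein folding and the secretory pathway, 39 were higher and 4 lower, with a median of 0.56. KDELR3, which returns escaped ER proteins, had 210, 551 and 262 counts against 19 and 36 (log2 fold change 3.73). SEC24D, of the vesicle coat that leaves the ER, has 2 entries in the table and had 334, 327 and 408 counts against 60 and 50 in the leading entry (log2 fold change 2.84). CREB3L1, a membrane-bound factor that raises secretory capacity, had 267, 292 and 442 counts against 32 and 26, and its relative CREB3L2 had 698, 911 and 771 counts against 92 and 103. The stress sensors ERN1 and ATF6 were lower, at log2 fold changes of −1.36 and −0.95, and 2 members were lower without naive-like ESC line 1. Of 36 tested heat shock chaperones, which fold proteins in the cytosol and mitochondria, 24 were lower and 7 higher, with a median of −0.74, 8 of them lower against a fold of 2, and the list took 0.925%, 0.999% and 0.960% of the counts in pXEN lines 1, 2 and 3 and 2.51% and 2.34% in naive-like ESC lines 1 and 2. HSPD1, the mitochondrial chaperonin, had 5617, 7445 and 6429 against 30698 and 24963 (log2 fold change −1.96, SE 0.11). HSPA2 had 19, 34 and 20 counts against 625 and 603 and HSPA4L had 36, 53 and 46 counts against 686 and 742, both chaperones best known from testis.

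Most tested genes of cell division were not called. Of 40 tested replication genes, 6 were higher and 10 lower with a median of −0.05, and of 39 tested mitosis genes, 9 were higher and 7 lower with a median of 0.09. Both shares of both lists were below those over all genes. Under upper-quartile scaling the replication genes moved to 4 higher and 17 lower, and the mitosis genes turned to 7 higher and 12 lower. Without naive-like ESC lines 1 or 2, 5 and 4 replication genes were lower. CDC25B, a phosphatase that opens mitosis, stood apart with 226, 306 and 281 counts in the pXEN lines and 2131 and 2110 in the naive-like ESC lines (log2 fold change −2.83, SE 0.11, adjusted p = 1.01e-06), and PCNA, the replication clamp, had 1588, 1781 and 1717 against 5350 and 4582 (log2 fold change −1.41). Among the regulators, 14 of 32 tested cyclins, CDKs and inhibitors were lower and 7 higher, or 4 higher without naive-like ESC line 1. CDKN2A, the locus of the p16 inhibitor, had 10, 21 and 10 counts against 706 and 655 (log2 fold change −5.49, adjusted p = 1.03e-05). E2F7, a repressor of the E2F family, had 54, 120 and 88 against 1953 and 1840 (log2 fold change −4.31), and the stress gene GADD45G had 2, 18 and 1 against 573 and 596.

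Most tested chromatin regulators were not called either. Of 40 tested Polycomb and Trithorax genes, 7 were higher and 11 lower, none past a log2 value of 3, and 3 were higher without naive-like ESC line 1. Upper-quartile scaling gave 5 higher and 13 lower. RBBP7, a histone-binding subunit shared by several complexes, had 959, 1577 and 1227 counts against 6558 and 5472 (log2 fold change −2.13). PHF1, an accessory subunit of PRC2, was higher, with 348, 340 and 388 against 109 and 100 (log2 fold change 1.92). Of 12 tested DNA methylation genes, DNMT3A, TET1 and TET2 were higher and DNMT1 and MBD3 lower. The balance of this list turned with the fit, to 2 higher and 4 lower under upper-quartile scaling, 3 and 3 with DESeq2, and 2 and 3 with the replicate block. The call of TET1, with 64, 60 and 83 counts against 26 and 47, was lost without pXEN line 1, pXEN line 3 or naive-like ESC line 1 (adjusted p = 0.0810, 0.102 and 0.218). DNMT3A, a de novo methyltransferase, had 1007, 1302 and 1058 counts against 440 and 454 (log2 fold change 1.46), TET2, which oxidises methylcytosine, 798, 561 and 863 against 288 and 340 (log2 fold change 1.39), and DNMT1, the maintenance methyltransferase, 3101, 2881 and 3387 against 5172 and 5052 (log2 fold change −0.57).

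Imprinted genes were examined because the pXEN lines came from parthenogenetic embryos, in which no allele is of paternal origin. Imprinting in pig was not measured. The embryos behind the naive-like ESC lines are not described in the sources used here, so origin and cell type cannot be told apart. Of 24 tested imprinted genes, 11 were lower and 6 higher in pXEN cells. Among the 4 leading genes of the lower side, NDN, PEG3 and SGCE are known from other mammals as expressed from the paternal allele. NDN had 102, 31 and 94 counts in the pXEN lines and 815 and 864 in the naive-like ESC lines (log2 fold change −3.31, adjusted p = 0.000265). PEG3 had 535, 497 and 620 against 2961 and 2692 (log2 fold change −2.22, adjusted p = 5.86e-06), and SGCE 24, 19 and 36 against 117 and 119 (log2 fold change −2.02). Reads of all 3 were thus present in every pXEN line. PHLDA2 and SLC22A18, neighbours on chromosome 2 known as expressed from the maternal allele, led the higher side. PHLDA2 had 127, 204 and 109 counts against 2 and 0, and SLC22A18 had 96, 130 and 137 counts against 0 and 1. The parent of origin did not sort the list in full: SNRPN, a paternally expressed gene, was higher, with 1090, 1346 and 1139 counts against 965 and 978 (log2 fold change 0.43, adjusted p = 0.00867), and IGF2R, maternally expressed in mouse, was lower. SNRPN was chosen after its values were seen, and parent of origin was not tallied over the 24 tested members. Of 26 tested germline and meiosis genes, 9 were lower and 5 higher. TEX15, a meiotic gene, had 0, 1 and 0 counts against 137 and 129, and SOHLH2, a germ cell factor, none against 66 and 56, at least 18.4-fold lower. KIT, the receptor of stem cell factor, was higher, with 643, 965 and 777 against 4 and 13 (log2 fold change 6.65).

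Of 28 tested interferon and MHC class I genes, 6 were higher and 9 lower, or 7 and 7 with DESeq2. Without pXEN line 1, 3 were higher and 7 lower, and without pXEN line 2, 8 were higher and 8 lower. B2M, the light chain of MHC class I, has 2 entries in the table and had 0, 17 and 4 counts against 95 and 55 in the leading entry (log2 fold change −3.29, adjusted p = 0.0121). Its adjusted p was 0.0713 without naive-like ESC line 1. IFIT2, an interferon-induced RNA-binding protein, was higher, with 75, 53 and 84 against 1 and 0. Of 26 tested chemokine, cytokine and NF-kB genes, 9 were higher and 7 lower, or 8 and 8 under upper-quartile scaling. Without pXEN line 1, 10 were higher and 4 lower, and without pXEN line 2, 10 were higher and 10 lower. CXCL16, a membrane-bound chemokine, had 65, 195 and 62 counts against none, at least 38.6-fold higher (adjusted p = 0.000489), and TNFRSF12A, the TWEAK receptor, 936, 1304 and 917 against 159 and 181 (log2 fold change 2.76). ACKR3, a scavenger of CXCL12, was lower, with 0, 3 and 0 against 59 and 47.

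Of 32 tested ERK feedback regulators and ETV factors, 16 were higher and 1 lower, with a median log2 fold change of 1.34 (1.10 at the bound). DUSP6, a phosphatase of ERK that ERK signalling induces, had 795, 563 and 871 counts against 2 and 11 (log2 fold change 6.96, adjusted p = 1.45e-05). DUSP9, another phosphatase of ERK, had 3240, 5959 and 3565 counts against 6 and 5 (log2 fold change 9.69, adjusted p = 1.25e-06). ETV4 and ETV5, transcription factors downstream of FGF and ERK, were higher as well. ETV4 had 664, 471 and 794 counts against 7 and 3, and ETV5 had 1879, 811 and 2273 counts against 38 and 33, with line 2 the lowest pXEN line for both. In the primed ESC lines, whose medium held no MEK inhibitor, DUSP6 had 518 and 637 counts and ETV4 had 1056 and 798, while DUSP9 had 15 and 16. The medium of the naive-like ESCs, which held the MEK inhibitor, and their cell type cannot be told apart. FOSL1, an AP-1 factor, was the member lower in pXEN cells, with 17, 33 and 28 counts against 144 and 123 (log2 fold change −2.23), and 6 members were lower without pXEN line 2.

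WNT and BMP genes were higher in most called members. Of 50 tested WNT ligands, receptors and modulators, 29 were higher and 10 lower. WNT11, a ligand of the non-canonical branch, had 480, 704 and 412 counts in the pXEN lines and 0 and 2 in the naive-like ESC lines, a ratio of 585 (interval 162 to 4838; adjusted p = 7.34e-06). The secreted inhibitors DKK1 and SFRP5 are both known from the anterior visceral endoderm. DKK1 had 82, 268 and 168 counts against none, at least 61.9-fold higher, and SFRP5 had 139, 373 and 88 counts against none, at least 72.1-fold higher, with pXEN line 2 the highest for both. Members lower in pXEN cells included FZD10 and LGR5. FZD10, a frizzled receptor, had 0, 2 and 0 counts against 1155 and 1140, a ratio of 1564 (interval 432 to 12923), and LGR5, a receptor for R-spondins, had 20, 13 and 17 counts against 353 and 311 (log2 fold change −4.16). Of 33 tested BMP genes, 19 were higher and 4 lower. The ligand BMP2, with 2 entries in the table, had 522, 586 and 625 counts against 3 and 0 in the leading entry, and the ligand BMP7 had 517, 791 and 590 counts against 0 and 1. Inhibitors that BMP signalling induces were higher with them. SMAD6 had 1935, 2328 and 1907 counts against 59 and 37 (log2 fold change 5.56, adjusted p = 9.89e-07), and BAMBI had 1241, 1570 and 1252 counts against 75 and 82 (log2 fold change 4.24, adjusted p = 9.89e-07). MSX1, a homeobox target of BMP in mesenchyme and neural crest, was lower, with 11, 5 and 8 against 58 and 54 (log2 fold change −2.64).

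**Figure D5:**
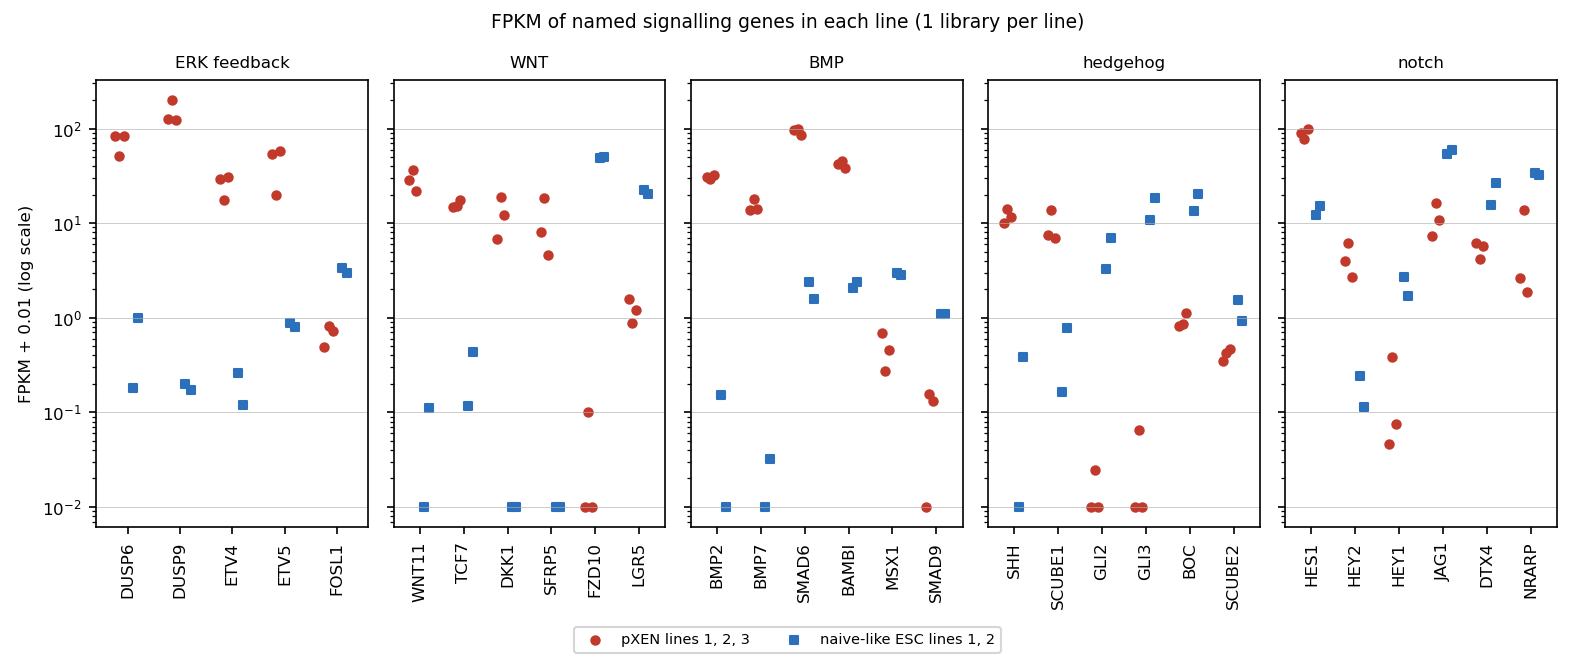
FPKM + 0.01 on a log scale for named signalling genes in each line, with pXEN lines 1 to 3 as red circles and naive-like ESC lines 1 and 2 as blue squares, and points at 0.01 standing for no reads. The ligands WNT11, BMP2, BMP7 and SHH lie higher in the pXEN lines, while the hedgehog mediators GLI2 and GLI3 lie higher in the naive-like ESC lines.

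In the hedgehog list, the ligand SHH and the mediators GLI2 and GLI3 were on opposite sides. Another member, SMO, held 49.9% of the list's reads in the pXEN lines. The study also names IHH, another hedgehog ligand, among the genes that pXEN cells express. SHH had 113, 188 and 149 counts in the pXEN lines and 0 and 5 in the naive-like ESC lines (log2 fold change 5.96, adjusted p = 0.000235). The transcription factors GLI2 and GLI3, which carry the response in the receiving cell, were lower. GLI2 had 0, 1 and 0 counts against 234 and 477, a ratio of 969 (interval 173 to 38332), and GLI3 had 0, 4 and 0 counts against 838 and 1363 (log2 fold change −9.44), with all reads of the pXEN lines in line 2. The co-receptor BOC, on chromosome 13, had 24, 29 and 37 counts against 489 and 708 (log2 fold change −4.18). In all, 6 of 16 tested members were higher and 8 lower, and against a fold of 2 the list turned to 5 higher and 3 lower. The notch list was near the background, with 7 of 26 tested members higher and 8 lower, and turned to 6 higher and 5 lower without pXEN line 1 and to 6 and 4 without naive-like ESC line 2. The ligand JAG1 was lower, with 448, 1187 and 741 against 4107 and 4316 (log2 fold change −2.30), and the target genes were divided. HES1, on chromosome 13, was higher, with 1359, 1384 and 1651 counts against 227 and 269, as was HEY2, with 97, 177 and 73 counts against 7 and 3. HEY1 was lower, with 1, 12 and 2 counts against 90 and 55, as was NRARP, with 9, 55 and 7 counts against 141 and 129, and pXEN line 2 was the highest pXEN line for both. The call of NRARP was lost without pXEN line 1 or either naive-like ESC line (adjusted p = 0.0511, 0.0737 and 0.0656).

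A grouping that used no hand-written list, by the leading letters of gene symbols, gave 151 families of at least 10 tested genes. Claudins (CLDN) were higher in 8 of 12 members and lower in 2, collagens (COL) higher in 24 of 38 and lower in 4, and WNT ligands higher in 9 of 15 and lower in 1. Mitochondrial ribosomal proteins were lower in 23 of 38 members of the large subunit (MRPL) and 15 of 23 of the small subunit (MRPS), and none was higher. Subunits of RNA polymerases (POLR) were lower in 15 of 26 members with none higher, and DEAD-box helicases (DDX) lower in 17 of 31 and higher in 3. FGF ligands were lower in 6 of 10 members and higher in 3, and RGS proteins, which end G protein signals, lower in 6 of 10 and higher in 3. Mitochondrial ribosomal proteins were in no list above, and 4 subunits of RNA polymerase I were among the ribosome assembly factors.

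Genes of chromosomes 13 and 16 stood apart as groups. Over the 1129 tested genes of chromosome 13 the median log2 fold change was 0.46, and against the mean of the naive-like ESC lines the medians of pXEN lines 1, 2 and 3 were 0.54, 0.11 and 0.58. The 298 tested genes of chromosome 16 had a median of −0.73, with −0.67, −0.48 and −0.65 in the pXEN lines. Against the mean of the primed ESC lines, chromosome 13 stood at 0.48, 0.07 and 0.49 in the pXEN lines and at −0.09 and −0.05 in the naive-like ESC lines. On chromosome 16 it was the naive-like ESC lines that stood apart, at 0.44 and 0.48, with pXEN lines 1 and 3 at −0.09 and −0.11. The genes named above as lying on these chromosomes may share the shift, and its part in each was not tested. In the named genes of chromosome 13 the leading differences, such as those of TF and SEMA5B, were far larger in size than 0.46, that of SEMA5B in the other direction. SLC25A20, at a log2 fold change of 1.39, was nearer to it. On chromosome 16 OCLN and SLIT3 went against the shift.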

How the data were processed

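RNA was sequenced after depletion of ribosomal RNA, with strand-specific libraries of 3 pXEN, 2 naive-like ESC and 2 primed ESC lines. The authors deposited a table of raw counts per gene, not normalized, and a table of FPKM values of the same genes, scaled by them to gene length and library total. Per the submitters' processing notes, HISAT2 2.0.5, featureCounts 1.5.0-p3 and the Sscrofa10.2 assembly were used; the strand setting and the treatment of overlapping genes are not given in the sources used here. The 29510 genes held between 10408164 and 12995720 counts per library, and gene names missing in the table were filled in from a table of pig gene names for 1785 genes.

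The raw counts were tested in R 4.3.3 with edgeR 4.0.16 (quasi-likelihood test, TMM normalization, filterByExpr, no covariate, all 7 libraries in the fit, Benjamini-Hochberg adjustment over the 17447 genes tested). The test was first run on simulated counts in which few genes changed. In the real data most genes were called, so that run does not cover the scaling here. Calls were made at an adjusted p below 0.05. FPKM values were used for plots and levels only, and in limma 3.58.1 on log2(FPKM + 0.1) as an alternative. DESeq2 1.42.0, other scalings, filters and samples were the other alternatives. Nothing says that replicates of a line were made, so each line is 1 library and p-values measure the spread between lines.

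The 50 function lists hold 2166 distinct genes, of which 1922 were matched and 1640 tested, and the genes of the known marker lists were left out of them. The lists and the comparison were chosen with earlier results of these data known. Lists got no test. Named genes were called and did not overlap between types, ranked by the smallest fold between any libraries of the types with low values raised to 3 counts: the leading 15 in each direction over all genes, and in each list the leading 4 in the direction with more calls and the leading 2 in the other. Some genes that this rule names are not reported here. Other genes named were chosen after their values were seen. Line numbers of the groups only name lines: correlations of the deviations of same-numbered lines lay between −0.01 and 0.04.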

Additional observations from a re-analysis of the deposited data

How the results depend on the processing

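Of the 296 named genes, 0 reversed under any of the 14 alternatives run in which they were tested. Nearly all were chosen from these same data as called and without overlap, so a reversal was unlikely in advance. In a test against a 2-fold change, the genes higher in pXEN cells were 2773 and the genes lower in pXEN cells 1785, and 245 of the named genes were still called. With at least 10 counts in every library, the genes higher in pXEN cells past log2 3 were 420 and the genes lower in pXEN cells past log2 3 were 117, because that filter removes every gene below 10 counts in any library, 160 of the named genes among them. With it the plasma carriers had 1 higher and 1 lower, complement 1 and 1, the neural transcription factors 3 and 3, the interferon list 3 and 3 and the HOX list 0 and 0. The retinoid list turned to 3 and 4, gluconeogenesis to 4 and 5, amino acid breakdown to 6 and 10, the germline list to 4 and 2 and the pluripotency markers to 3 and 4, while the fibroblast markers had 1 and 2 and the trophectoderm markers 2 and 0. With each library left out in turn, the genes higher in pXEN cells lay between 3914 and 5262 and those lower between 3459 and 5168, the highest of each without pXEN line 2. Upper-quartile scaling gave 4348 higher and 5621 lower. With the line number as a replicate block, 4447 genes higher in pXEN cells and 3827 genes lower in pXEN cells were called, 1703 and 1082 of them past log2 3, and the numbers do not pair the lines. Leaving out chromosomes 13 and 16 gave 4525 higher and 4186 lower. With 2 naive-like ESC lines, a fit without either of them assumes that the remaining line varies like the other groups.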

Other observations

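Among the 15 leading genes of each direction, a few belonged to none of the lists. SPINT1, an inhibitor of membrane serine proteases in epithelia, had 3534, 4117 and 3474 counts against none, at least 1361-fold higher (adjusted p = 1.68e-06, edgeR's quasi-likelihood test). SHISA2, which holds WNT and FGF receptors in the ER, had 5274, 3508 and 5880 counts against none, at least 1810.1-fold higher. CALB2, the calcium-binding protein calretinin of interneurons, had 3, 4 and 2 counts against 4237 and 1448, and MGAT5B, a glycosyltransferase of brain, had 0, 1 and 0 counts against 1187 and 1650, a ratio of 3867 (95% interval 693 to 152791). JAKMIP2, a coiled-coil protein known from neurons, had no count against 1203 and 874, at least 312-fold lower, and LRP11, a membrane protein, had 0, 3 and 0 counts against 1241 and 1235, a ratio of 1125 (interval 384 to 5459). Of 2810 tested transcripts without an annotated gene, 719 were higher in pXEN cells and 689 lower, shares near those over all genes.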
